A study of Mus musculus with 6 samples.

Results

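The transcriptional response to azacytidine plus entinostat was measured in M-MDSCs, the monocytic subset of myeloid-derived suppressor cells, from bone marrow. It covers the 3 bone marrow arrays, chosen by tissue, of the 6 arrays of the series; the other 3 hold the same comparison in lung. Each array held RNA of mock cells labelled with Cy3 and RNA of treated cells labelled with Cy5, both from C57BL/6 mice. Mock mice received vehicle and were 6 to 8 weeks old, and an age of the treated mice is not in the labels. The M-MDSCs were isolated by fluorescence-activated sorting, and each treated RNA pooled 3 to 6 mice and each mock RNA 1 to 2. The labels name the arrays as biological replicates 1 to 3. No array has the dyes exchanged, so treatment and dye cannot be told apart.

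Myeloid-derived suppressor cells are immature myeloid cells that expand in cancer and inflammation and dampen T cell responses. Their monocytic form resembles inflammatory monocytes, which leave the marrow through the chemokine receptor Ccr2, depend on the growth factor receptor Csf1r and respond readily to interferon. Azacytidine is a cytidine analogue that traps DNA methyltransferases after incorporation and so lowers DNA methylation in dividing cells. Entinostat inhibits class I histone deacetylases and raises histone acetylation.

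The comparison asks how gene expression of marrow M-MDSCs differs after the combination. Values are log2 ratios of treated over mock, so that 1 is a doubling and a negative value is lower in treated cells, and 3 values in a row belong to replicates 1, 2 and 3. The heading of the deposited ratio table names mock over treated, but its values equal Cy5 over Cy3 (Pearson r from 0.9995 to 0.9998 across spots), and the dyes of the labels were followed. On the marrow arrays 49.9% to 55.9% of the mock signals were well above background, as were 55.1% to 58.6% of the treated signals. With 3 arrays, their number sets how precise each value is. Of 36 monocyte identity genes, 35 were tested and all 35 were well above background in both channels of every marrow array, Csf1r, Ccr2 and Itgam among them. No probe carried the name Ly6c2 or Ly6g, the genes of the sorting antigens Ly6C and Ly6G. Of 33 genes of secondary granules and mature neutrophils 31 were tested, so transcripts of the granulocyte line were measured in the sorted cells as well.

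Of 18502 genes tested, 2710 differed between treated and mock marrow M-MDSCs, which is 14.6%: 1404 were higher (7.59%) and 1306 lower (7.06%) in treated cells at an adjusted p under 0.05. The response was small for most of them. The median size among passing genes was 0.46, and 96 genes rose and 26 fell by more than 2-fold. All 2710 had the same sign on the 3 arrays. The ratios of the arrays correlated across genes with r = 0.74 between replicates 1 and 2, 0.59 between replicates 1 and 3 and 0.64 between replicates 2 and 3; genes are not independent replicates. The count rests on few arrays: it was 910 without replicate 1 and 691 without replicate 2, and 1402 when the mock and treated signals of an array were not treated as a pair. No gene passed limma's test when the arrays were scaled to the same spread (5482 at an unadjusted p under 0.05) or when median centring replaced the loess correction of dye by signal (1021 at an unadjusted p under 0.05), against 6617 here. Median centring left the median of all genes at 0.29 instead of 0.02, so list medians under it are given relative to that shift. Subtracting 1 shift does not remove a dye effect that changes with signal. For example, the median of cytosolic ribosomal proteins was 0.09 with loess and 0.59 relative to all genes with median centring. A relative median above that with loess is therefore no added support. The agreement of the arrays also depended on the loess step. With median centring, r was 0.067 between replicates 1 and 2, -0.088 between replicates 1 and 3 and 0.84 between replicates 2 and 3.

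**Figure D1:**
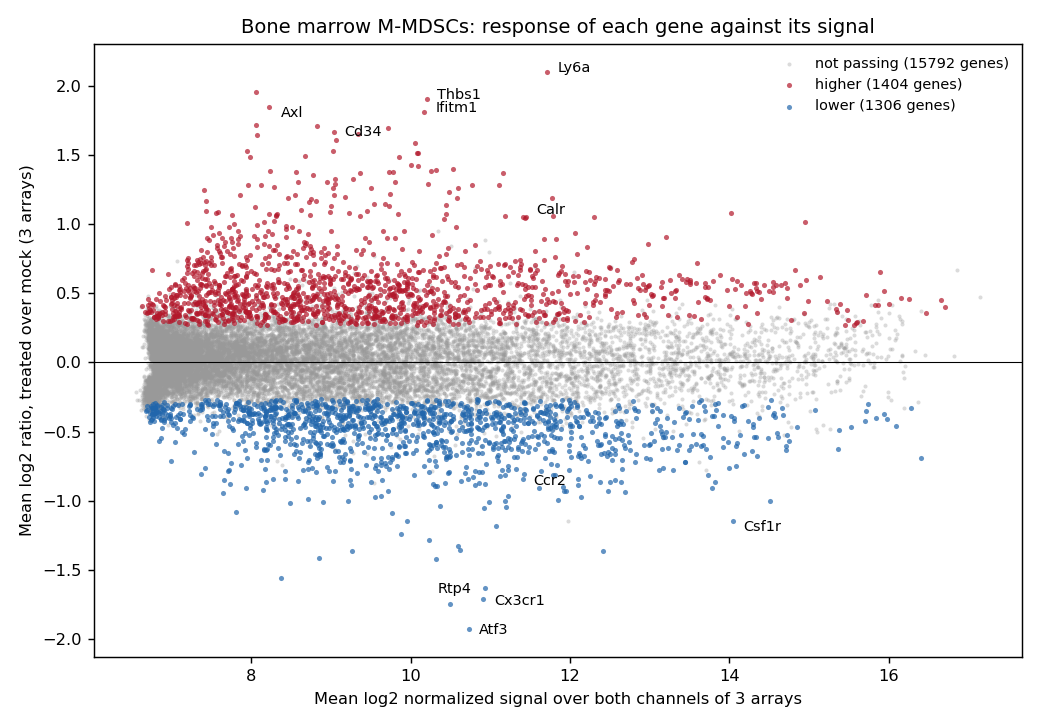
Mean log2 ratio of treated over mock (vertical axis) against the mean log2 normalized signal over both channels (horizontal axis) for the 18502 genes of the 3 marrow arrays, with genes that passed coloured by direction. More genes rose than fell by over 2-fold, 96 against 26, with Ly6a at the top and Atf3 at the bottom of the named genes.

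Among the 18 leading genes that rose were several of the surface of blood stem and progenitor cells. Ly6a, which encodes the stem cell antigen Sca-1, had log2 signals of 10.66, 10.56 and 10.75 in mock cells and 12.59, 12.70 and 12.99 in treated cells (probe A_51_P265495, which the deposited files place at 74825553 to 74825612 of chromosome 15 in mm9). The treated signal lay above all mock signals on every array, with ratios of 1.93, 2.14 and 2.23, a rise of 4.29-fold (2.10 ± 0.16, SD, n = 3, adjusted p = 0.002). Cd34, a sialomucin of progenitor and endothelial cells, had ratios of 1.46, 1.49 and 2.04 (1.66 ± 0.32, SD, n = 3, adjusted p = 0.00349). Egfl7, a secreted factor of endothelial and progenitor cells, followed with 1.61, 1.26 and 2.08, a mean of 1.65. Ly6d, a Ly6 antigen of lymphoid and plasmacytoid lineages, was the least even of this group at 1.16, 1.65 and 2.73, with its highest value on replicate 3 (1.85 ± 0.80, SD, n = 3, adjusted p = 0.0107).

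Where leaving out a replicate moved the count of a gene list by over 1.5 times, the counts without replicate 1, 2 and 3 follow it in parentheses. Every list count is to be read against the 7.59% of all genes that rose and the 7.06% that fell. Of 26 stem and progenitor genes tested 8 rose and 1 fell, against 7.59% and 7.06% of all genes, while their median of 0.10 lay close to the 0.02 of all genes. Another 12 listed genes were not tested. On all 3 arrays 25 of the 26 were well above background in treated cells and 20 in mock cells. Members could thus enter the test through the treated channel alone, so the count is no test of the group. Hoxa7, a homeobox factor of early progenitors, rose with ratios of 0.91, 1.25 and 1.21, and Adgrg1, an adhesion receptor of stem cells, with 0.78, 1.20 and 1.26. Adgrg1 was not well above background on any mock array, and its mean difference of 2.12-fold rests on those dim mock signals. The member that fell was Prom1, which encodes the progenitor antigen CD133, at -0.66, -0.90 and -0.56; it was named after its value was seen. The other 17 did not pass. Cd34 and Egfl7 also stand among endothelial markers, whose summed signal was 2806 to 3145 in mock and 4378 to 5928 in treated cells; its part in the result was not tested. Of 13 Ly6 family genes tested 5 rose (4, 2 and 5) and 8 did not pass, and Ly6c1 was among those that rose, at 0.78, 0.71 and 0.46; probes of Ly6 paralogs can hybridise with each other's transcripts.

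The other high ratios came from genes of varied function. Thbs1, which encodes the adhesive matrix protein thrombospondin, had ratios of 1.17, 3.06 and 1.48 (1.90 ± 1.02, SD, n = 3, adjusted p = 0.0176). Replicate 2 was far above the other replicates. Axl, a receptor tyrosine kinase with which phagocytes sense dying cells, rose more evenly at 1.36, 1.68 and 2.09 (1.71 ± 0.37, SD, n = 3, adjusted p = 0.00353). Adora3, the adenosine A3 receptor, rose at 1.59, 1.78 and 1.08. Ifitm1, a membrane protein that blocks virus entry, had its highest ratio on replicate 1 (2.17, 1.87 and 1.39).

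Angptl4, a secreted inhibitor of lipoprotein lipase, rose by 1.61 ± 0.33 (SD, n = 3). Lpl, the lipase itself, ranked below the leading genes, with ratios of 1.54, 1.21 and 1.17. Bdh1, a mitochondrial enzyme of ketone body metabolism, had ratios of 1.10, 1.49 and 1.86. Ccnd2, which encodes the G1 cyclin D2, was among the most even at 1.36, 1.30 and 1.47. Selenom, a selenoprotein of the endoplasmic reticulum, rose at 1.37, 1.57 and 1.83.

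The remaining 6 of the 18 had means between 1.39 and 1.72. They were Armcx2, an X-linked armadillo protein gene (1.72), Krt18, a keratin of simple epithelia (1.64), and F7, coagulation factor VII (1.49). They also held Scnn1a, a subunit of the epithelial sodium channel (1.43), Hmgn1, a nucleosome-binding protein (1.42), and Tmem37 (1.39). Every one of the 18 was well above background on the 3 mock arrays, so these rises started from a measured level.

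**Figure D2:**
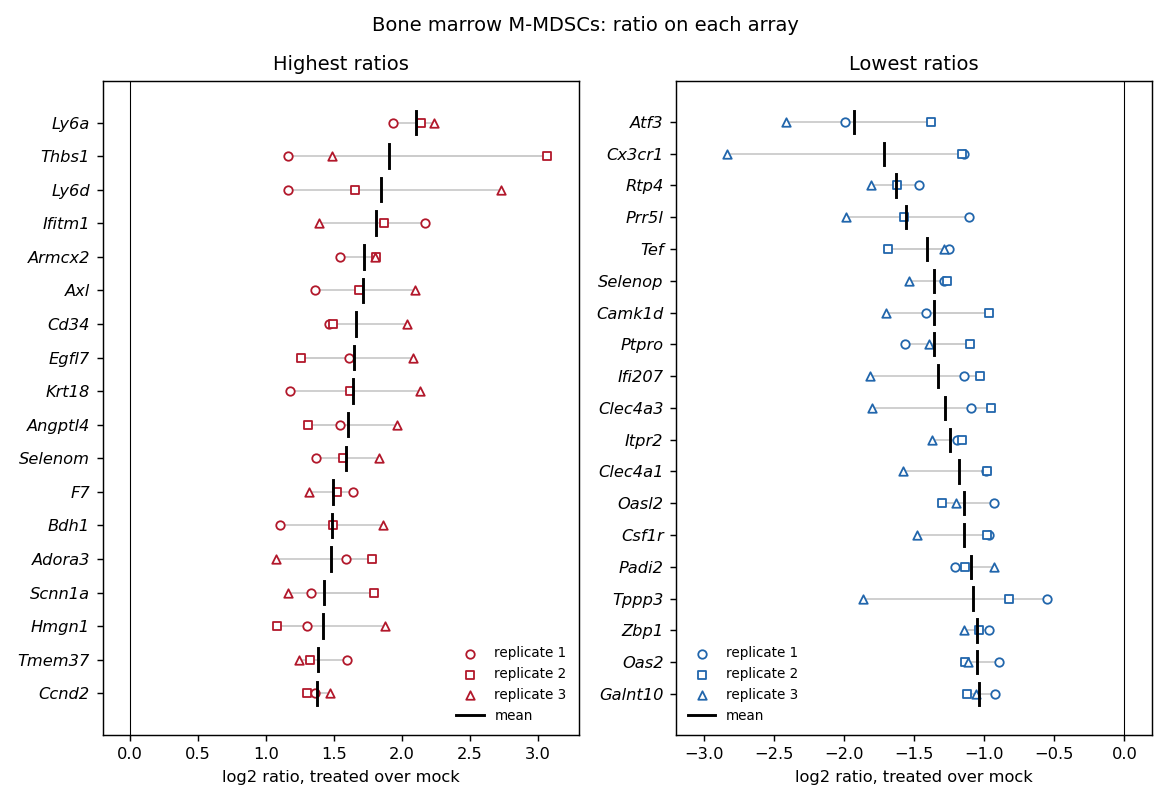
Log2 ratio of treated over mock on each of the 3 marrow arrays (symbols) and the mean (bar) for the 18 leading genes that rose and the 19 that fell. Every array lies on the same side of 0 for all 37 genes, and replicate 3 gives the lowest value for Cx3cr1 and Tppp3 by over 1 log2 unit.

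Atf3 and Cx3cr1 had the lowest means of the genes that fell. Atf3, a stress-induced transcription factor of the ATF family, had log2 signals of 12.37, 11.74 and 10.97 in mock cells and 10.37, 10.36 and 8.56 in treated cells (probe A_52_P452689, which the deposited files place at 192994547 to 192994606 of chromosome 1 in mm9). Treated was below mock on every array although the mock signals themselves differed, with ratios of -1.99, -1.38 and -2.41, a fall of 3.81-fold (-1.93 ± 0.52, SD, n = 3, adjusted p = 0.00415). Cx3cr1, the fractalkine receptor of patrolling monocytes, had ratios of -1.15, -1.16 and -2.84 (-1.71 ± 0.97, SD, n = 3, adjusted p = 0.0203). Its fall was over 2-fold on each array and largest on replicate 3. Csf1r, the receptor for macrophage colony-stimulating factor, fell more evenly at -0.97, -0.98 and -1.48 (-1.14 ± 0.29, SD, n = 3, adjusted p = 0.00445). In sorted bulk RNA, fewer cells of a type and less RNA per cell cannot be told apart.

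Clec4a3 and Clec4a1, C-type lectin receptors of myeloid cells, fell with ratios of -1.09, -0.95 and -1.80 and -0.99, -0.98 and -1.58. Ptpro, a receptor tyrosine phosphatase, had ratios of -1.57, -1.10 and -1.40. Replicate 3 gave the lowest value for each of these except Ptpro. Selenop, the plasma carrier of selenium, fell evenly at -1.29, -1.26 and -1.54. Padi2, which converts arginine to citrulline in proteins, had -1.21, -1.14 and -0.93, and Itpr2, a calcium channel of the endoplasmic reticulum, -1.19, -1.16 and -1.38. Prr5l, which binds the mTORC2 complex, had -1.56 ± 0.44, Camk1d, a calmodulin-dependent kinase, -1.36 ± 0.37, Galnt10, an enzyme of O-glycosylation, -1.04 ± 0.10, and Tppp3, a tubulin-binding protein, -1.08 ± 0.69 (SD, n = 3). Without replicate 2, Tppp3 did not pass (adjusted p = 0.0835).

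The two-sided limma test gave the 37 leading genes adjusted p from 0.002 to 0.0306, and 37, 36 and 37 of them passed without replicates 1, 2 and 3. They kept their direction under every alternative processing tried. Scaling the arrays to the same spread ended all 37 calls (adjusted p from 0.122 to 0.131).

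Type I interferon-stimulated genes, the antiviral programme that monocytes run at a low tone, were lower in treated marrow. Of 44 tested, 26 fell (59.1%, against 7.06% of all genes), 1 rose and 17 did not pass, with a median of -0.49; relative to all genes the median was -0.39 with median centring. Rtp4, an interferon-induced chaperone of receptors, was the lowest at -1.47, -1.62 and -1.81 (-1.63 ± 0.17, SD, n = 3, adjusted p = 0.0031). All its treated log2 signals (10.37, 10.40 and 9.58) lay below all its mock signals (11.84, 12.02 and 11.39). Oasl2 and Oas2, of the oligoadenylate synthetase family that senses double-stranded RNA, fell at -0.93, -1.30 and -1.20 and -0.89, -1.14 and -1.12. Zbp1, a sensor of left-handed nucleic acid, had ratios of -0.97, -1.04 and -1.15, and Xaf1, a proapoptotic interferon target, -0.91, -0.97 and -1.09. The spread of these genes over the arrays was small beside their fall.

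The single gene of this list that rose was Trim25, a ubiquitin ligase that acts on the RNA sensor RIG-I, at 0.61, 0.36 and 0.78. Trim25 was named after its value was seen. Its ratios lay close to those of Ifitm7 in marrow (0.67, 0.42 and 0.82). In lung they were 0.58, 1.01 and 0.95 for Trim25 and 0.58, 0.99 and 0.95 for Ifitm7. Whether both probes read the same transcript was not tested. The count of 26 became 21 without replicate 1, 13 without replicate 2 and 27 without replicate 3. Without replicate 1, Trim25 did not pass (adjusted p = 0.062). Oas and Ifit genes have close paralogs that a probe may not separate.

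Other parts of the interferon system moved unevenly. Of 17 receptors and signalling genes 8 fell (2, 3 and 7) and 9 did not pass, with a median of -0.41, which was 0.14 with median centring and -0.15 relative to all genes. Ifngr2, a chain of the interferon gamma receptor, fell at -1.03, -0.75 and -0.57, and Ptpn6, a phosphatase that restrains cytokine receptors, at -0.50, -0.35 and -1.01; Ptpn6 was above 0 with median centring. Of 16 cytosolic nucleic acid sensors 9 fell (3, 4 and 10) and 7 did not pass, with a median of -0.46 (0.06 with median centring, -0.23 relative to all genes). Ifi207, a PYHIN family gene, was the lowest at -1.14, -1.03 and -1.82, and Trex1, a DNase that clears cytosolic DNA, had -0.71, -0.55 and -1.29.

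Interferon-induced GTPases and transmembrane proteins moved in both directions. Of 16 GTPases 2 rose (2, 1 and 2) and 3 fell (0, 0 and 4) and 11 did not pass: Tgtp2 was higher at 0.60, 0.70 and 0.70 and Gbp4 at 0.37, 0.92 and 0.70, which was well above background on 2 of the 3 mock arrays. Of 6 Ifitm genes tested 2 rose (1, 2 and 3) and 1 fell (0, 0 and 1); beside Ifitm1, Ifitm7 had ratios of 0.67, 0.42 and 0.82, while Ifitm3 had -0.42, -0.38 and -0.98, and close paralogs in both families can share signal. Cxcl10 and Ccl5, chemokines that interferon can induce, rose at 0.71, 0.80 and 1.05 and 0.49, 0.81 and 1.19. Without replicate 1, Ifitm7 and Ifitm3 did not pass (adjusted p = 0.0528 and 0.062). Without replicate 2, Gbp4, Ifitm3 and Ccl5 did not pass (adjusted p from 0.0636 to 0.0775). With median centring Ifitm3 was above 0.

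Promoters of the lower interferon genes were searched for the core of the interferon-stimulated response element, the site of the factor complex that drives them, as GAAA, any 2 bases and GAAA on either strand. RefSeq promoters of build GRCm38.p6, 250 bases before to 50 after the start site, matched 10955 of the 18502 genes tested, and 3.94% of these held the core. It was present in 7 of 19 lower interferon-stimulated genes with a promoter (36.8%) and in 8 of 13 that were not lower (61.5%). The 4 lowest members with a match upstream of the start site are shown to let the sites be seen, with the core and its reverse complement in capitals, 5′ to 3′ on the strand of the gene. They are Slfn8 (chr11:83020819-83020888, minus strand), Oas1a (chr5:120907526-120907575, minus strand), Ifit3 (chr19:34583343-34583446, plus strand) and Slfn5 (chr11:82951917-82951986, plus strand).
Slfn8: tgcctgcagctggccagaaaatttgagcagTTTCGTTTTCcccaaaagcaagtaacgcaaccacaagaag
Oas1a: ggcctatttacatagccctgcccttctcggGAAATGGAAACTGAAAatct
Ifit3: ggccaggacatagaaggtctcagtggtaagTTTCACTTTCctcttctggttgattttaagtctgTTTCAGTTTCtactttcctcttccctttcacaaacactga
Slfn5: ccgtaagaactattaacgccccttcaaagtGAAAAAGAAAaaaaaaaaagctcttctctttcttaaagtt
Oas1a holds overlapping matches that end 4 bases before the start site, and Ifit3 holds 2 separate ones. Slfn8, a Schlafen family gene, fell at -0.85, -0.98 and -1.18. Oas1a fell at -0.34, -0.65 and -0.91, Ifit3, which binds viral RNA with its relatives, at -0.50, -0.71 and -0.25, and Slfn5 at -0.20, -0.61 and -0.64; Oas1a was above 0 with median centring. Without replicate 1, Ifit3 did not pass (adjusted p = 0.0925). Without replicate 2, Oas1a, Ifit3 and Slfn5 did not pass (adjusted p from 0.0907 to 0.162).

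Genes of the unfolded protein and integrated stress response, which raise the folding capacity of the endoplasmic reticulum and amino acid synthesis, went the other way. Of 25 tested 16 rose (64%, against 7.59% of all genes), 2 fell and 7 did not pass, with a median of 0.58. Relative to all genes the median was 0.74 with median centring, which leaves in any dye effect that changes with signal. Calr, the lectin chaperone calreticulin, rose evenly at 1.01, 1.01 and 1.11 (1.05 ± 0.06, SD, n = 3, adjusted p = 0.00349), and Canx, its membrane-bound partner calnexin, at 0.79, 0.60 and 0.69. Pdia4, a disulfide isomerase, had 0.83, 0.76 and 0.87, Sdf2l1, a BiP cofactor, 0.75, 0.72 and 0.67, and Manf, a secreted stress factor of the same compartment, 0.97, 1.33 and 0.86. All treated signals of Calr (11.75, 12.18 and 11.95) lay above all its mock signals (10.73, 11.17 and 10.84).

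The 2 members that fell were Ddit3, which encodes the proapoptotic factor CHOP, at -0.34, -0.25 and -0.64, and Ppp1r15a, which encodes GADD34, the phosphatase subunit that restores translation, at -0.48, -0.26 and -1.12; both were named after their values were seen. Phgdh, the first enzyme of serine synthesis, had the highest mean of the list at 1.50, 0.86 and 1.52 and was likewise chosen after its value was seen. The count of 16 that rose was 10 without replicate 1 and 12 without replicate 2, and neither Ddit3 nor Ppp1r15a passed without either of them. Of 18 heat shock proteins 4 rose (2, 2 and 4) and 2 fell (0, 0 and 3) with a median of -0.07 (0.03 relative to all genes with median centring). Hspa5, the chaperone BiP of the endoplasmic reticulum, was counted in this list and had ratios of 1.41, 1.31 and 0.53 (1.08 ± 0.48, SD, n = 3, adjusted p = 0.0131), lowest on replicate 3. The others that rose were the mitochondrial chaperonins Hspd1 (1.12, 0.66 and 1.37) and Hspe1 (0.45, 0.26 and 0.54) and the cytosolic chaperone Hsp90aa1 (1.12, 0.49 and 1.12). Without replicate 1, Hspa5, Hspe1 and Hsp90aa1 did not pass (adjusted p from 0.05 to 0.0918). Without replicate 2, Hspa5 and Hspe1 did not pass (adjusted p = 0.0664 and 0.0663).

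The endoplasmic reticulum stress element, searched as CCAAT, any 9 bases and CCACG on either strand and added after the results were known, was rare: 18 of the 10955 promoters of tested genes held it (0.164%). It was present in 4 of the 13 genes of the list that rose and had a promoter (30.8%), and in none of the 9 that did not rise. The 4 are shown upstream of their start sites with the element in capitals, 5′ to 3′ on the strand of the gene. They are Calr (chr8:84847045-84847123, minus strand), Canx (chr11:50325770-50325848, minus strand), Pdia6 (chr12:17266461-17266539, plus strand) and Creld2 (chr15:88819490-88819568, plus strand) in GRCm38.p6.
Calr: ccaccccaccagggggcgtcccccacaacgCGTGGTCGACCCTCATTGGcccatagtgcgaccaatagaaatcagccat
Canx: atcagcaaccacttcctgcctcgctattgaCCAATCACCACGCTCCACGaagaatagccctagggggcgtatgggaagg
Pdia6: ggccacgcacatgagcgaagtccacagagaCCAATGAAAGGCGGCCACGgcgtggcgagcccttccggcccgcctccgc
Creld2: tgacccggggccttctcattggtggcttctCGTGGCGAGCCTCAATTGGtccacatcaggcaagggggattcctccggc
In Calr and Creld2 the element lies in the opposite orientation, so that the run in capitals opens with CGTGG and ends with ATTGG. Pdia6, another disulfide isomerase, rose at 0.96, 0.59 and 0.61, and Creld2, a secreted stress protein, at 1.20, 0.83 and 0.39; both were named for the motif, after their values were seen. Without replicate 1, Creld2 did not pass (adjusted p = 0.057). Without replicate 2, Creld2 did not pass (adjusted p = 0.0881).

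**Figure D3:**
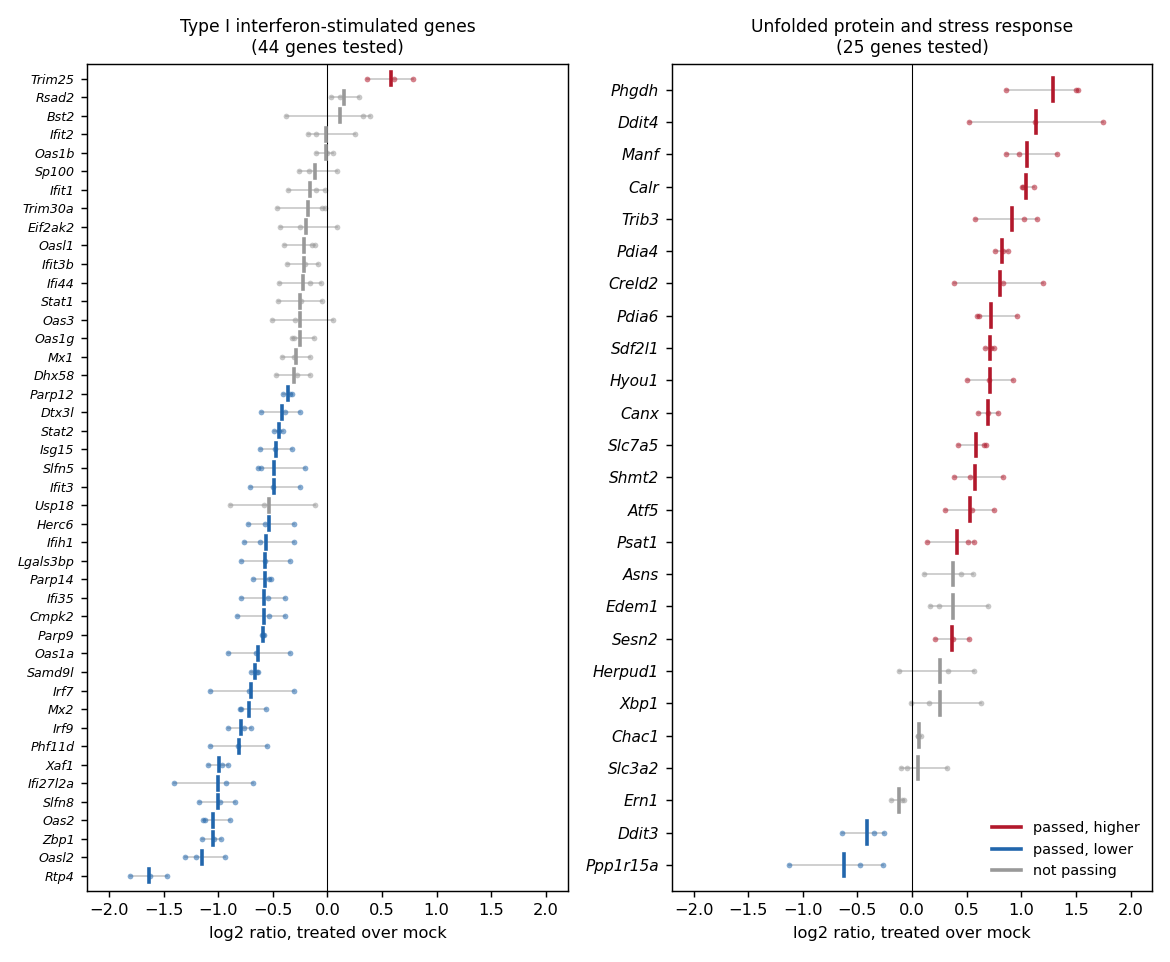
Log2 ratio of treated over mock for each tested gene of the interferon-stimulated list (44 genes) and of the unfolded protein and stress response list (25 genes), with the 3 marrow arrays as points, the mean as a bar and colour for the call. Interferon genes lie mostly left of 0, with Trim25 alone in the higher class, and the stress response genes mostly right of 0, with Ddit3 and Ppp1r15a lower.

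Immediate early transcription factors, which answer a stimulus before new protein is made, were counted in 2 lists. Of 16 AP-1 and ATF factors 5 fell (1, 3 and 6) and 11 did not pass, against 7.06% of all genes that fell, with a median of -0.30 (0.11 with median centring, -0.18 relative to all genes). After Atf3 the lowest was Fosb, an AP-1 subunit, at -1.36, -1.08 and -0.33; Jun had -0.32, -0.25 and -0.60, Jund -0.62, -0.26 and -0.52 and Mafk, a partner of AP-1 factors, -0.66, -0.33 and -0.46. Jun and Jund were above 0 with median centring. Of 22 genes of the Egr, Nr4a, Ier and Dusp families and their relatives, 5 fell (2, 5 and 5) and 1 rose (1, 1 and 4), with a median of -0.21 (0.22 with median centring, -0.07 relative to all genes). Klf2, a factor of quiescence, fell at -1.17, -0.37 and -1.20, and Nr4a2, an orphan nuclear receptor, at -0.48, -0.72 and -0.74. Myc, which drives growth and ribosome synthesis, rose at 1.05, 1.29 and 1.44 (1.26 ± 0.20, SD, n = 3, adjusted p = 0.00349). Without replicate 1, Fosb, Jun, Jund, Mafk and Klf2 did not pass (adjusted p from 0.072 to 0.0949). Without replicate 2, Fosb, Jun, Mafk and Nr4a2 did not pass (adjusted p from 0.052 to 0.118).

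Of 19 NF-kB subunits and feedback genes 4 fell and 15 did not pass, with a median of -0.26 (0.11 with median centring, -0.18 relative to all genes). The 4 were the subunits themselves: Nfkb1 at -1.01, -0.68 and -0.76, Relb at -0.68, -0.77 and -0.91, Rela at -0.62, -0.62 and -0.79 and Nfkb2 at -0.37, -0.63 and -0.74. The same number fell without each replicate in turn. Of 13 clock and PAR bZIP factors 5 fell (3, 1 and 4) and 8 did not pass, with a median of -0.27 (-0.35 relative to all genes with median centring). Tef, a clock output factor, was much lower than the others at -1.26, -1.69 and -1.29 (-1.41 ± 0.24, SD, n = 3, adjusted p = 0.00349). Dbp, its relative, had -0.42, -0.31 and -0.54, and Tsc22d3, a glucocorticoid-induced gene, -0.46, -0.46 and -0.79. Without replicate 1, Dbp did not pass (adjusted p = 0.0779). Without replicate 2, Dbp, Tsc22d3 and Nfkb2 did not pass (adjusted p from 0.0576 to 0.0789).

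Genes that define monocytes and the factors that build them moved in both directions. Of 35 monocyte identity genes 10 fell and 4 rose (2, 2 and 9), against 7.06% and 7.59% of all genes. Their median was -0.18, and with median centring it was 0.28, or -0.01 relative to all genes. Besides Csf1r, Cx3cr1 and the Clec4a lectins, Ccr2, the receptor for monocyte exit from the marrow, fell at -1.08, -0.54 and -0.91 (-0.84 ± 0.28, SD, n = 3, adjusted p = 0.00856). Sirpa, an inhibitory receptor for CD47, had -0.85, -0.59 and -0.90, and Ms4a6c and Ms4a6b, tetraspan genes of monocytes, -0.77, -0.53 and -0.70 and -0.52, -0.59 and -0.65. Itgam, which encodes the sorting antigen CD11b, was slightly higher at 0.36, 0.37 and 0.25. Without replicate 1, Itgam did not pass (adjusted p = 0.121). Without replicate 2, Itgam did not pass (adjusted p = 0.188).

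Of 34 transcription factors of myeloid fate 8 fell (3, 5 and 9) and 26 did not pass, against 7.06% of all genes that fell. Their median was -0.14 (0.15 with median centring, -0.14 relative to all genes). Cebpd, which takes part in myeloid maturation, had the lowest mean at -1.14, -0.90 and -0.79 (-0.94 ± 0.18, SD, n = 3, adjusted p = 0.00417). Zeb2 and Rxra fell at -0.68, -0.52 and -0.68 and -0.56, -0.56 and -0.85. Cebpe, the factor of secondary granule genes, fell at -0.71, -0.69 and -0.33 and was above 0 with median centring. Of 25 growth factor and cytokine receptors of myelopoiesis 6 fell (2, 1 and 7) and 3 rose (2, 1 and 5); Il1r2, the decoy receptor for interleukin 1, rose at 1.49, 1.51 and 0.78. Without replicate 1, Cebpe did not pass (adjusted p = 0.0693). Without replicate 2, Cebpe did not pass (adjusted p = 0.0916).

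Granule genes of the neutrophil line did not move as 1 group. The counts in these lists stand against 7.59% of all genes that rose and 7.06% that fell. Of 17 genes listed for primary granules 6 rose and 1 fell (1, 1 and 2) with a median of 0.22. Relative to all genes it was 0.66 with median centring, which leaves in any dye effect that changes with signal. Ctsg, which encodes the protease cathepsin G, rose at 0.93, 0.67 and 1.45, and Cst7, an inhibitor of cathepsins, at 0.52, 0.38 and 0.65. The listed member that fell was Igsf6, at -1.01, -0.75 and -0.94. It encodes a membrane protein of the immunoglobulin superfamily, so its fall is not that of a granule protein gene. Of 31 secondary granule and mature neutrophil genes 8 rose (3, 2 and 11) and 6 fell (2, 4 and 6) with a median of 0.07. Camp, the cathelicidin precursor, fell at -0.96, -0.47 and -0.64 but was above 0 with median centring, whereas Fpr1, the receptor for formylated peptides, rose at 0.92, 1.92 and 1.04 and Mmp8, the neutrophil collagenase, had 1.04, 1.68 and 0.46. S100a8 and S100a9, the calprotectin subunits, rose at 0.40, 0.68 and 0.38 and 0.48, 0.36 and 0.36. Without replicate 1, Cst7, Mmp8, S100a8 and S100a9 did not pass (adjusted p from 0.0568 to 0.0879). Without replicate 2, Mmp8, S100a8 and S100a9 did not pass (adjusted p from 0.0646 to 0.107).

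Genes followed whatever their values include those of recruitment and suppression. Cxcr2, the receptor that draws the granulocytic line, rose at 0.35, 0.67 and 0.21, opposite to Ccr2. Adgre1, which encodes the macrophage antigen F4/80, had 0.33, 0.41 and -0.31 and Nos2, the inducible nitric oxide synthase, 0.09, 0.03 and -0.10; neither passed (adjusted p = 0.506 and 0.965) and their arrays lay on both sides of 0. Arg1, the arginase of suppressive myeloid cells, was not well above background on any marrow array in either channel and was not tested. Of 30 inflammatory and suppressive mediators 3 rose (1, 0 and 8) and 2 fell (0, 2 and 1). These shares, 10% and 6.67%, were near the 7.59% and 7.06% of all genes. Cd274, which encodes the checkpoint ligand PD-L1, rose at 0.48, 1.10 and 0.55. Of 23 chemoattractant receptors 7 rose (3, 2 and 9) and 2 fell, and Cxcr4, which retains cells in the marrow, rose at 0.48, 0.36 and 0.48. Without replicate 1, Cxcr2 and Cxcr4 did not pass (adjusted p = 0.106 and 0.0695). Without replicate 2, Cxcr2, Cd274 and Cxcr4 did not pass (adjusted p from 0.0605 to 0.226).

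Of 30 macrophage genes 6 rose (4, 3 and 9) and 1 fell (0, 0 and 3), with a median of 0.05 (-0.06 relative to all genes with median centring). This count and those of the next 2 lists stand against 7.59% of all genes that rose and 7.06% that fell. Fabp5, a fatty acid carrier, rose with Lpl, Angptl4 and Axl, at 0.48, 0.58 and 0.94. The member that fell was Apoe, the lipoprotein of macrophages, at -0.54, -0.43 and -1.62, named after its value was seen. Of 17 MHC class II presentation genes 2 rose (2, 1 and 3) and 4 fell (3, 0 and 4); H2-Oa, a chain of the peptide editor H2-O, rose at 0.95, 1.34 and 1.56, while Cd40, a costimulatory receptor, fell at -0.44, -0.66 and -1.13 and Ifi30, a lysosomal thiol reductase, at -0.42, -0.51 and -1.05. Of 21 matrix and thrombospondin genes 7 rose (4, 4 and 7) and 14 did not pass, and Spp1, which encodes osteopontin, was even at 1.18, 0.99 and 1.04. Without replicate 1, Apoe did not pass (adjusted p = 0.0747). Without replicate 2, Fabp5, Apoe, Cd40 and Ifi30 did not pass (adjusted p from 0.0576 to 0.0735).

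**Figure D4:**
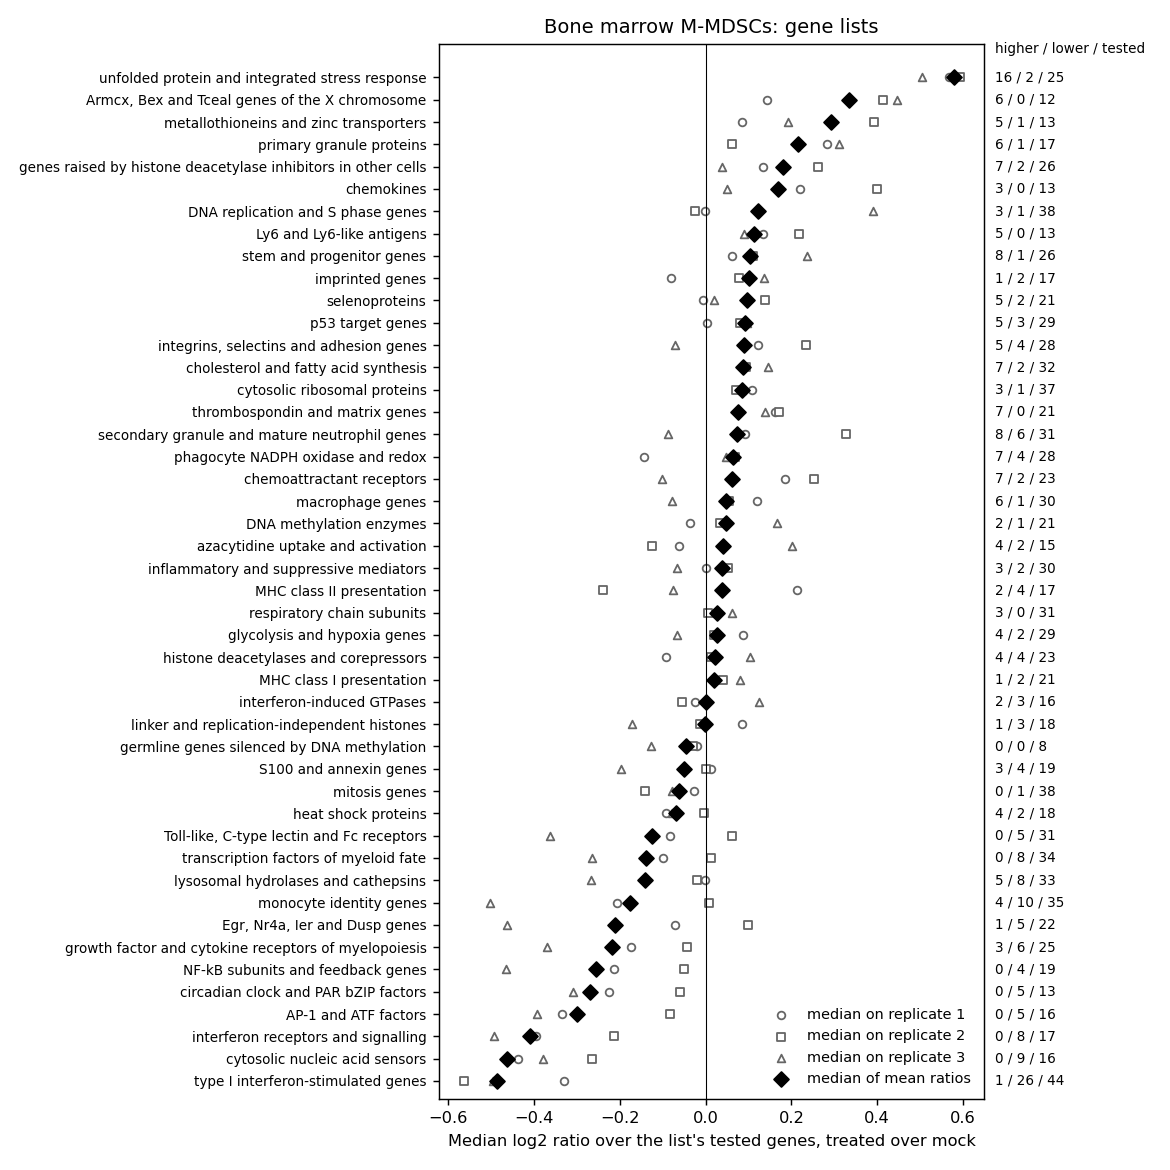
Median log2 ratio of treated over mock for lists of at least 8 tested genes (vertical axis), as the median of mean ratios and on each marrow array (horizontal axis), with the numbers higher, lower and tested at the right. Interferon, nucleic acid sensor and AP-1 lists lie lowest and the unfolded protein list highest; with median centring the medians of the sensor, interferon signalling, AP-1, NF-kB and monocyte lists, among others, were above 0.

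Among 21 DNA methylation enzymes and readers 2 rose (2, 1 and 2) and 1 fell (0, 1 and 1), a share close to the 14.6% of all genes that passed. Dnmt1, the maintenance methyltransferase that azacytidine depletes as a protein, had ratios of 0.03, -0.16 and 0.08 (adjusted p = 0.917) and Dnmt3a -0.01, 0.14 and 0.43 (adjusted p = 0.217). The de novo methyltransferase Dnmt3b and its cofactor Dnmt3l rose at 0.35, 0.67 and 1.27 and 0.69, 0.96 and 1.03. The class I deacetylases Hdac1, Hdac2 and Hdac3, targets of entinostat, had -0.02, 0.01 and 0.34, -0.27, -0.12 and 0.49 and 0.10, 0.14 and 0.40, and none passed. Of 23 deacetylases and corepressors 4 rose (1, 0 and 4) and 4 fell (3, 1 and 5); Hdac7, of class II, rose at 0.47, 0.53 and 0.58. Without replicate 2, Dnmt3b and Hdac7 did not pass (adjusted p = 0.103 and 0.0606).

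Of 15 genes of azacytidine uptake and activation 4 rose (2, 1 and 4) and 2 fell (0, 1 and 2). The 2 uridine-cytidine kinases that perform the first phosphorylation differed in direction, with Uck2 at 0.96, 0.70 and 0.84 and Uck1 at -0.46, -0.36 and -0.42. Slc29a1, a nucleoside transporter, rose at 0.32, 0.50 and 0.42. Uck1 was above 0 with median centring. Without replicate 1, Uck1 and Slc29a1 did not pass (adjusted p = 0.0759 and 0.057). Without replicate 2, Uck1 and Slc29a1 did not pass (adjusted p = 0.0822 and 0.128).

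Genes that DNA methylation keeps silent outside the germ line stayed largely under detection. Of 32 germline genes 8 were tested, none passed limma's test (1 at an unadjusted p under 0.05), and their median was -0.05. The other 24 were not well above background on 2 arrays in either channel. Of 40 imprinted genes 17 were tested, 1 rose (1, 0 and 1) and 2 fell (0, 0 and 1). Among the Armcx, Bex and Tceal genes of the X chromosome, 6 of 12 tested rose, against 7.59% of all genes, and 6 did not pass. Their median was 0.33, and 9 of the 21 genes listed were not tested. On all 3 arrays 10 were well above background in treated cells and 8 in mock cells. The list was chosen with earlier results of these data known, so the count is no test of the group. Beside Armcx2 at 1.54, 1.81 and 1.80, Armcx3 had 0.47, 0.63 and 0.71 and Tceal9 0.35, 0.43 and 0.44. Without replicate 2 only 1 of the 12 passed. Over all genes, 3.99% of the genes that rose lay on the X chromosome, against 2.68% of those that fell and 3.61% of the others. Without replicate 1, Tceal9 did not pass (adjusted p = 0.0606). Without replicate 2, Armcx3 and Tceal9 did not pass (adjusted p = 0.0542 and 0.109).

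CpG dinucleotides, the sites of DNA methylation, were counted in the promoters. Those of genes that rose over 2-fold had a median of 11.5 CpG in 300 bases (50 genes with a promoter), against 20 over all tested genes, 20 over all that rose and 22 over all that fell. For a gene with several promoters the highest count was taken. Genes that fell over 2-fold were not counted apart. In the interferon-stimulated list the median was 6 for members that fell and 6 for those not lower, so a low count is not particular to genes that rose. Of 26 genes that histone deacetylase inhibitors raise in other cells, 7 rose (2, 3 and 9) and 2 fell (0, 1 and 2), with a median of 0.18 (0.23 relative to all genes with median centring). The metallothioneins Mt2 and Mt1, which bind zinc, rose at 1.34, 1.30 and 0.84 and 0.78, 0.47 and 0.51. Cdkn1a, which encodes the cell cycle inhibitor p21, had 0.37, 0.69 and 0.29 and H1f0, the linker histone of resting cells, 0.44, 0.63 and 0.22. Without replicate 1, Mt1, Cdkn1a and H1f0 did not pass (adjusted p from 0.0516 to 0.105). Without replicate 2, Cdkn1a and H1f0 did not pass (adjusted p = 0.159 and 0.184).

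Some genes were well above background in 1 channel only. Treated RNA was always in Cy5. On replicate 3, 58.6% of treated signals were well above background against 49.9% of mock signals, and on replicate 1 55.1% against 55.4%. The treated channel was well above background on all 3 arrays and the mock channel on none for 675 genes. Of these 77 rose, against 7.59% of all genes. For 196 genes the reverse held, and 38 of them fell, against 7.06% of all genes. Both sets were picked by the same signals that the ratio compares. That choice favours these directions, so nothing is read from either count. Fstl1, a secreted glycoprotein, had a bound of 2.35-fold on its mean rise, and Ccnd1, which encodes cyclin D1, 2.24-fold. For Maged1, an X-linked MAGE family gene, it was 1.93-fold. These genes were chosen after their values were seen. Each bound sets the treated mean against the mock mean or the lowest signal well above background on each array, whichever is higher. For Ccnd1 it equals the mean ratio, and no bound is a limit for single arrays. Their ratios were 0.49, 1.25 and 2.00 for Fstl1, 0.71, 1.21 and 1.58 for Ccnd1 and 0.46, 1.06 and 1.49 for Maged1, each highest on replicate 3. Without replicate 2, Fstl1 and Maged1 did not pass (adjusted p = 0.0996 and 0.0841).

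Gene lists of proliferation and core metabolism are read against the 7.59% of all genes that rose and 7.06% that fell. Of 38 mitosis genes 1 fell (0, 0 and 3), and of 38 replication genes 3 rose (0, 1 and 3) and 1 fell (0, 0 and 2), with medians of -0.06 and 0.12. Of 37 cytosolic ribosomal proteins 3 rose (0, 0 and 4) and 1 fell (0, 0 and 1), and of 31 respiratory chain subunits 3 rose (1, 1 and 3); Cycs, which encodes cytochrome c, had 1.02, 0.85 and 0.71. These shares were near or below those of all genes. Higher shares were called in the next 3 lists. Of 32 genes of cholesterol and fatty acid synthesis 7 rose (4, 2 and 8) and 2 fell (0, 0 and 1), led by Scd2, a desaturase, at 1.13, 1.43 and 0.86. Of 29 p53 targets 5 rose (3, 1 and 8) and 3 fell (0, 1 and 3), and Phlda3, an inhibitor of Akt signalling, had 0.55, 0.93 and 1.80; it was well above background on 1 of the 3 mock arrays. Of 33 lysosomal genes 5 rose (0, 1 and 8) and 8 fell (1, 4 and 9), the lowest p among them being that of Ctsa, the protease cathepsin A, which fell at -0.62, -0.58 and -1.05. Without replicate 2, Phlda3 did not pass (adjusted p = 0.0803).

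Markers of other cells were checked because the sort can admit them, and their part in the results was not tested. B cell genes Ms4a1, Pax5, Ebf1 and Rag1 were not well above background on 2 arrays, and of 10 B cell genes tested 2 rose (2, 1 and 2), Blnk at 1.15, 0.92 and 0.99 and Dntt at 0.47, 0.78 and 1.13; their summed signal was 1891 to 1989 in mock and 2108 to 2478 in treated cells. Of 12 T cell genes 4 rose (2, 0 and 2), Cd6 at 0.46, 0.65 and 1.19 and Cd5, well above background on 1 mock array only, at 0.35, 0.71 and 0.67 among them, while the defining genes Cd3d, Cd3e, Cd4 and Cd8a did not pass, with means of 0.12, 0.13, 0.03 and 0.01; their summed signal was 2346 to 2509 and 2691 to 2829. For 10 natural killer cell genes, of which 2 rose (3, 0 and 2), it was 4387 to 5103 and 4963 to 5385, and Ncr1 and Klrb1c were not well above background. The share that rose in these lists stands against 7.59% of all genes. Some members entered the test through the treated channel alone, so these counts support no rise of a cell type: on all 3 arrays 9 of the B cell, 10 of the T cell and 9 of the natural killer cell genes were well above background in treated cells, and 8, 8 and 4 in mock cells.

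Of 18 dendritic cell genes 8 rose (7, 2 and 7) and 1 fell, and their summed signal was 30521 to 33518 in mock and 33806 to 37038 in treated cells. Cd24a rose at 0.72, 1.07 and 1.37, and Xcr1 and Cd209a were not well above background on any marrow array. Of the 8 that rose, 5 were not well above background on all mock arrays. Of 9 endothelial genes tested 4 rose, Cd34, Egfl7, Eng (0.69, 0.67 and 0.98) and Vwf (0.26, 0.77 and 0.49; well above background on 1 mock array), with sums of 2806 to 3145 and 4378 to 5928. Cdh5, Tek, Tie1 and 8 further endothelial genes were not well above background on any marrow array. Of 12 megakaryocyte and platelet genes 3 rose (3, 1 and 5), Thbs1, Vwf and Pf4, with sums of 2624 to 3301 and 4473 to 5614, while Itga2b, Ppbp and Gp1ba were not well above background. Pf4 was not well above background on any mock array, and its mean rise of 1.39-fold rests on those dim mock signals. Of the 12 genes, 11 were well above background on all treated arrays and 5 on all mock arrays, so the count of 3 is no measure of the cell type. Globin and other erythroid genes had sums of 11559 to 30093 and 15028 to 43268; 3 of 16 rose (1, 2 and 3) and 1 fell (0, 0 and 0), and Hba-a1 had 0.65, 0.46 and 0.65. Among the lists so far, the sums overlapped between mock and treated for natural killer cell and erythroid genes and not for the B cell, T cell, dendritic, endothelial and platelet genes. The dendritic, endothelial and platelet sums hold leading genes chosen for high ratios (Ly6d, Cd34, Egfl7 and Thbs1). How often sums of other genes overlap was not computed, so nothing is read from these. Without replicate 2, Dntt, Cd6, Cd5, Vwf and Pf4 did not pass (adjusted p from 0.0642 to 0.149).

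Of 10 eosinophil, basophil and mast cell genes 2 rose (1, 1 and 1), Siglecf at 0.52, 0.90 and 0.90 among them, with sums of 5019 to 6861 and 5545 to 7787. Of 8 stromal genes 2 rose (1, 1 and 2), with sums of 1650 to 1941 and 1871 to 2272, and Cxcl12, Pdgfra and Adipoq were not well above background. Both of these sums overlapped between mock and treated.

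The response of the 37 leading genes was set beside that in lung M-MDSCs, where tissue, slide and scan cannot be told apart. Of the 18 that rose 16 were above 0 on all 3 lung arrays, and 5 differed from lung by limma's test, against 14.8% of all genes. The genes were chosen for extreme marrow ratios, which the difference subtracts, so its direction and this share are descriptions from which nothing is read. Ly6d was the farthest, with lung ratios of -0.41, -1.63 and -1.97 and a difference of -3.19 (lung minus marrow, adjusted p = 0.00693). Of the 19 that fell, 12 were below 0 on all lung arrays and 12 differed. Selenop was the farthest of these, with lung ratios of 1.72, 0.99 and 1.24 and a difference of 2.68 (adjusted p = 0.000717), and Cx3cr1 was close to it, with 1.46, 0.69 and 0.72 and 2.67 (adjusted p = 0.00972).

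Of the interferon-stimulated genes among the lowest, Rtp4, Oasl2, Zbp1 and Oas2 did not differ from lung by this test. Slfn8 of the same list did (0.47, lung minus marrow, adjusted p = 0.0358), as did Ifi207 of the sensor list (0.84, adjusted p = 0.0453). Rtp4 had lung ratios of -1.95, -1.20 and -1.26, Oasl2 -1.13, -0.78 and -1.01, Zbp1 -1.85, -0.91 and -1.28 and Oas2 -1.09, -0.68 and -0.59 (adjusted p of the difference from 0.253 to 0.599); a p that misses the threshold does not show that the tissues respond alike. With median centring none of the 37 differences passed, and with the processed signals of the scanner software 20 did.

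**Figure D5:**
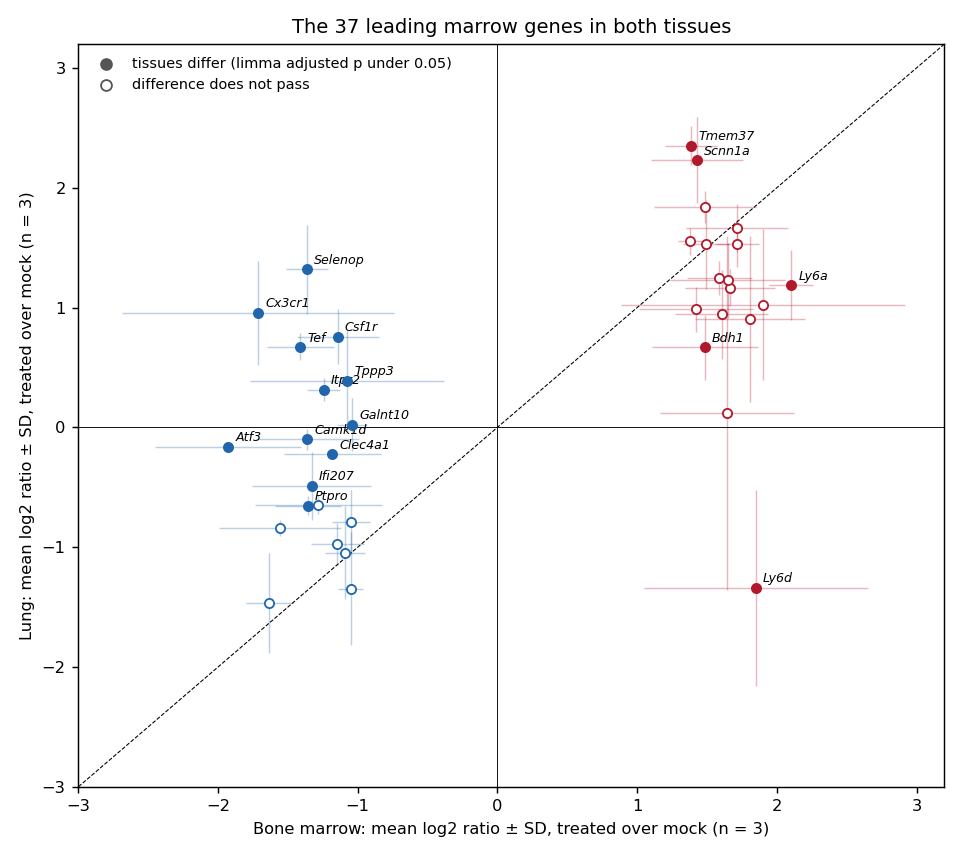
Mean log2 ratio of treated over mock in bone marrow (horizontal axis) and lung (vertical axis) for the 37 leading marrow genes, with SD over 3 arrays as bars; filled points mark the 17 genes whose tissues differed, and the dashed line marks equal ratios. Genes higher in marrow lie mostly above 0 in lung as well, with Ly6d below, and several of the lower genes, Selenop and Cx3cr1 among them, lie above 0 in lung.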

How the data were processed

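Each deposited scanner file gives, for every spot, the intensity of the signal and of the background around it. Per the file headers these were read with Agilent Feature Extraction 10.7.3.1, and probes are placed on mm9. The deposited ratio table holds log2 values per spot, made by the authors; the submitters' processing notes name limma, and no source used here states its settings. The scanner software's processed intensity values, in the same deposited files, were used as an alternative.

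Log ratios (log2 of Cy5, treated, over Cy3, mock) were computed with limma 3.58.1 (R 4.3.3) from the mean signal and the median of the local background, using normexp (offset 50) followed by loess on every array. Control and outlier-marked spots were left out and spots of a probe averaged. A probe was kept when well above background on at least 2 of the 3 marrow arrays in a channel, which left 23153 of 39429 probes. Of all probes 26679 were named by RefSeq accession, 2537 by symbol and 474 by synonym, and 9739 kept the name in the file. The brightest probe stood for each gene, giving 18502 genes, 5582 of them with an identifier or clone name only. Exons and UTRs behind probes were not analysed here.

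The mean of the 3 ratios was tested against 0 with lmFit and eBayes (2 residual and 4.49 prior degrees of freedom, two-sided), marrow arrays alone, Benjamini-Hochberg over all genes, threshold 0.05, checked on simulated data. Errors are standard deviations between arrays. Lung minus marrow was tested in a fit of all 6 arrays. The replicate numbers were not used to pair the tissues in that fit. Deviations of same-numbered arrays correlated with 0.0064, 0.13 and 0.059, which cannot show whether those arrays share mice. The members, gene lists, motifs and rules were chosen with earlier results of these data known. The text names the 20 highest and lowest passing genes with a symbol, the up to 5 members with the smallest p in every list, 16 preset genes, and others where said; a few genes that these rules pick are not reported here, which leaves 37 leading genes. Alternatives covered the background correction, dye correction, scaling, filters, probe choice, prior, pairing and each replicate left out; taking the background from negative control spots was chosen after seeing the data.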

Additional observations from a re-analysis of the deposited data

Results flagged for a closer look

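The ratios of 17 of the 37 leading marrow genes differed between the tissues by limma's test of lung minus marrow, against 14.8% of all genes tested. The genes were chosen for extreme marrow ratios, which the difference subtracts, so a difference above 0 for those that fell, and the larger share, can follow from that choice; nothing is read from either. All values here are that difference on the log2 scale; tissue, slide and scan cannot be told apart.

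Among genes that rose in marrow, the ratio was lower in lung for Ly6a (-0.91), Ly6d (-3.19) and Bdh1 (-0.82), and higher in lung for Scnn1a (0.80) and Tmem37 (0.97). Ly6d was below 0 on every lung array (-0.41, -1.63 and -1.97) and above 0 on every marrow array.

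Among genes that fell in marrow, the 12 differences that passed were above 0. The difference was 2.68 for Selenop, 2.67 for Cx3cr1, 2.08 for Tef, 1.90 for Csf1r, 1.47 for Tppp3 and 1.56 for Itpr2; their mean lung ratios were 1.32, 0.96, 0.67, 0.76, 0.39 and 0.32, all above 0. It was 1.77 for Atf3, 1.26 for Camk1d, 1.06 for Galnt10, 0.96 for Clec4a1, 0.84 for Ifi207 and 0.70 for Ptpro, whose mean lung ratios were -0.16, -0.10, 0.02, -0.22, -0.49 and -0.65. The adjusted p of the 17 differences ranged from 0.000634 for Tef and Itpr2 to 0.0461 for Scnn1a.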

How the results depend on the processing

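Against 2710 genes that passed, the count was 2611 with median signals, 4042 with processed signals, 4099 with no background correction, 4515 with the background from negative controls, 2946 with no filter on dim probes, 2637 with the filter on all 3 arrays, 2611 with the mean of a gene's probes, 3323 with a prior variance trend, 2622 from the authors' deposited matrix and 3640 with all 6 arrays in the fit. It was 0 with median centring and 0 with scaling between arrays (1021 and 5482 at an unadjusted p under 0.05 in limma). It was 1402 with no replicate block, that is with mock and treated signals of an array as unpaired samples, and from 691 to 3104 with 1 replicate left out. Of the 2710, 2699 also passed in the same direction with the background from negative controls and 660 without replicate 2. Median centring reversed 624 of the 2710. The negative control spots had a median Cy5 signal of 240.3 after normexp on replicate 1, against 13.5 on replicate 2; the effect of this on the other results was not tested beyond that alternative. The 17 tissue differences among the leading genes became 18 with the replicate block, 0 with median centring, 20 with processed signals and 13 to 16 with 1 array left out. Named genes that changed sign with median centring were Bnip3 (0.075), Camp (0.22), Cebpe (0.069), Dnmt1 (0.47), Fcer1g (0.047), Gsdmd (0.018), Ifitm3 (0.070), Jun (0.18), Jund (0.041), Ncf1 (0.040), Ncf4 (0.12), Oas1a (0.062), Ptpn6 (0.021) and Uck1 (0.15). Others that changed sign had not passed: Dnmt1 was 0.017 with no background correction, 0.0046 with negative controls and from -0.062 to 0.057 with 1 replicate left out. Hdac1 was -0.0050 without replicate 3, and Hdac2 was -0.076 with processed signals, -0.070 with scaling and -0.20 without replicate 3. Nos2 was -0.0089 with median signals, -0.11 with processed signals, -0.0075 in the authors' deposited matrix, and from -0.039 to 0.060 with 1 replicate left out (-0.0041 without replicate 2). With 1 replicate left out, Cd4 ranged from -0.028 to 0.10 and Cd8a from -0.072 to 0.072; Cd8a was -0.026 with scaling. The cause of these changes was not tested. Genes not well above background in a channel have only a bound there.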

Other observations

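Some smaller gene groups also moved in part in treated marrow; the members named here were chosen because they passed limma's test, and counts in parentheses are those without replicate 1, 2 and 3. Of 28 integrin, selectin and adhesion genes 5 rose (2, 3 and 10) and 4 fell (2, 1 and 6), against 7.59% and 7.06% of all genes. Itga1, a collagen receptor subunit, rose at 0.66, 0.57 and 0.65 and the tetraspanin Cd9 at 0.53, 0.64 and 0.95, while Itga4, the subunit through which monocytes bind VCAM-1, fell at -0.77, -0.64 and -0.97 and Itgav at -0.47, -0.47 and -0.52. Without replicate 1, Itgav did not pass (adjusted p = 0.0502). Without replicate 2, Itgav did not pass (adjusted p = 0.0651). Of 31 Toll-like, C-type lectin and Fc receptors and pyroptosis genes 5 fell (1, 2 and 5) and none rose. They were Tlr6, Tlr8, Fcer1g, the shared signalling chain of Fc receptors, Casp4, an inflammatory caspase, and Gsdmd, the pore protein gasdermin D, at -0.47, -0.48 and -0.60; Fcer1g and Gsdmd were above 0 with median centring.

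Of 28 genes of the phagocyte oxidase and redox control 7 rose (3, 0 and 7) and 4 fell (0, 0 and 4). The oxidase subunits Ncf1 and Ncf4 fell at -0.57, -0.30 and -0.53 and -0.46, -0.34 and -0.96, both above 0 with median centring, whereas the antioxidant genes Prdx1, Sod1 and Txn1 rose at 0.47, 0.61 and 0.47, 0.56, 0.48 and 0.36 and 0.43, 0.55 and 0.47. Of 29 glycolysis and hypoxia genes 4 rose (0, 1 and 7) and 2 fell (0, 1 and 3). Pgk1, Pgam1, Ldha and Pfkp, all of glycolysis, rose, and Bnip3, above 0 with median centring, and Pfkfb4 fell. The deposited files place the Pgk1 probe on chromosome 3, although the gene is X-linked. Which transcript that probe reads was not tested. Of 21 MHC class I presentation genes 1 rose (0, 0 and 1) and 2 fell. Cd1d1, which presents lipids, rose at 0.38, 0.58 and 0.19, and those that fell were Psmb10, an immunoproteasome subunit, at -0.75, -0.65 and -0.75 and Tapbp, which encodes tapasin, at -0.55, -0.62 and -0.70. Without replicate 1, Cd1d1 did not pass (adjusted p = 0.12). Without replicate 2, Cd1d1 did not pass (adjusted p = 0.23).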
